A study of Mus musculus with 11 samples.

Results

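Pancreatic alpha cells were followed through 7 genes that define their hormone and identity, read in bulk RNA-seq of sorted mouse islet cells. The genes were those whose symbol in the count table was *Gcg*, *Irx1*, *Irx2*, *Ttr*, *Slc7a2*, *Slc38a5* or *Pou3f4*, which is 7 of the 55401 genes counted. The rule used their names and no measured value. All 7 passed the filter on low counts and were among the 17424 genes tested. *Pou3f4* passed it only through the non-beta libraries, with 320 to 368 counts there and at most 22 in a beta library.

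Alpha cells are the islet cells that secrete glucagon, the hormone that raises blood glucose by acting on the liver. *Gcg* encodes proglucagon, which prohormone convertases cut into glucagon, and its transcription in the alpha cell depends on homeodomain factors. *Irx1* and *Irx2* encode Iroquois homeodomain factors and *Pou3f4* a POU domain factor (Brain 4), all known from the alpha lineage. *Ttr* encodes transthyretin, a carrier of thyroid hormone and retinol binding protein. *Slc7a2* and *Slc38a5* encode amino acid transporters, the former for cationic amino acids such as arginine and the latter for glutamine and other neutral amino acids, and alpha cells respond to amino acids in their growth and their hormone output.

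The 11 libraries came from FACS of dispersed islets of 4 male C57BL6/J mice on a chow diet. All the mice carried Cre under the rat insulin promoter (RIP), a tdTomato reporter behind a *lox*P-flanked stop, and EGFP driven by *Nnat* regulatory sequence, with no treatment. Beta cells were thus cells that RIP-Cre had switched to tdTomato, and EGFP, inherited from the father, divided them into NNAT-positive (4 libraries, mice 1 to 4) and NNAT-negative (4 libraries, mice 1 to 4). The 3 non-beta libraries (mice 1 to 3) held cells labelled non-beta, in which markers of endocrine, acinar, ductal, endothelial, leukocyte and mesenchymal cells were all read. The labels give an age of 10 weeks, and the study's text gives a younger age.

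The fraction names need a caution. *Nnat* itself, at 50.5, 46.4, 46.0 and 101 CPM (read counts scaled to library size) in mice 1 to 4 of the libraries labelled NNAT-positive, was lower than the 74.8, 80.8, 66.5 and 153 CPM of those labelled NNAT-negative. It was lower in 4 of 4 mice, by 0.62 ± 0.17 (SE) as a fitted log2 difference, which did not pass the test over all genes (adjusted *p*=0.444, edgeR's quasi-likelihood test with Benjamini-Hochberg adjustment). In non-beta cells *Nnat* was at 12.9, 29.9 and 17.4 CPM. The study's own normalised counts also give the 2 beta fractions the opposite names for the same libraries. The label names were kept, the libraries are called labelled-positive and labelled-negative for that reason, and a direction between the beta fractions holds for the libraries as labelled. Whether the names were exchanged was not tested.

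Library totals were between 30420352 and 43238376 counts, so that 3 counts, the floor used here, were at most 0.0986 CPM. CPM values use TMM-normalised library sizes. *Ins1* and *Ins2* together took 17.8% to 34.4% of the counts in the beta libraries and 0.970% to 2.34% in the non-beta libraries. The 7 beta cell markers rose in both beta fractions against non-beta cells. The non-beta libraries also held acinar transcripts, the 6 acinar genes summing to between 12367 and 47494 CPM. A percent of the non-beta level is therefore a percent of a mixture. In such bulk samples fewer alpha cells and less RNA per alpha cell cannot be told apart. Nor do the counts show which cells of a fraction the reads came from.

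The promoter windows of *Gcg* and *Irx2* are shown because, of the 7 genes, these were the 2 whose levels did not overlap between the beta fractions. The share of all tested genes without overlap between fractions is not given here. Both are the 250 bases before the transcription start from RefSeq on GRCm38.p6, 5′ to 3′ on the gene's strand, with capitals at matches to TATAAA or TAAT on either strand.
Gcg (chr2:62483654-62483903, minus strand): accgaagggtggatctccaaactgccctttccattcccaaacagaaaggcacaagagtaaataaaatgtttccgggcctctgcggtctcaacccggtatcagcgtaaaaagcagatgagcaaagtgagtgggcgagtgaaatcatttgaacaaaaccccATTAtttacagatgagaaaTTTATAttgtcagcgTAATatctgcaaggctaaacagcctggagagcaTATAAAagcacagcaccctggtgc
Irx2 (chr13:72628570-72628819, plus strand): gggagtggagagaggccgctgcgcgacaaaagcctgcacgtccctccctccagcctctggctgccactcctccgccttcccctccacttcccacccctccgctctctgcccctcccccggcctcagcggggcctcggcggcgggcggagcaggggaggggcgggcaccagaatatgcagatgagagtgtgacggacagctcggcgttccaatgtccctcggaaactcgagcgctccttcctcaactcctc
In these 250 bases and the 50 after the start, *Gcg* held TATAAA at position -24 from the start and again on the other strand at -72, and TAAT at -57 and, on the other strand, at -91. The *Irx2* window held neither. Of 32851 mouse promoter windows of the same length, 13.6% held TATAAA and 58% held TAAT on either strand. Promoter windows were used for 4 of the 7 genes, and any window on the chromosome of *Ttr* was left out. The *Pou3f4* window held 1 TAAT at -111, and the *Slc38a5* window held neither motif. The *Slc38a5* window held ACANNTGT, an Iroquois palindrome found in 7.38% of windows, at -31, which was not in the *Gcg*, *Irx2* or *Pou3f4* window. None of the motifs overlapped another in these windows. A match describes letters and is not a bound site.

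On GRCm38 *Gcg* (ENSMUSG00000000394.15) lies on chromosome 2 at 62474530 to 62483650, minus strand. *Irx1* (71957921 to 71963723, minus strand) and *Irx2* (72628820 to 72634198, plus strand) lie on chromosome 13 and are 665096 bases apart. *Ttr* is on chromosome 18 at 20665280 to 20674321 and *Slc7a2* on chromosome 8 at 40862396 to 40922308, both on the plus strand. *Slc38a5* (8271133 to 8280179) and *Pou3f4* (110814280 to 110817207) are on the plus strand of chromosome X. *Slc7a2* was the 1 gene of the 7 with exonic sequence in common with another gene, 635 bases shared with the lincRNA *Gm26584* on the opposite strand. The strand setting of the counting is not given in the sources used here, so reads from those bases may not separate the pair.

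*Gcg* was the most abundant of the 7 genes in each fraction. It reached 119071, 166640 and 143827 CPM in the non-beta libraries of mice 1 to 3, between 13.5% and 16.7% of all their counts. In the labelled-positive libraries it was at 3502, 2200, 3075 and 2517 CPM in mice 1 to 4. In the labelled-negative libraries it was at 1402, 1040, 1907 and 1134 CPM. The lowest non-beta library thus stood far above each beta library, and each labelled-positive library stood above each labelled-negative one. Means were 143179 ± 23791 CPM (SD, n=3), 2823 ± 579 CPM (n=4) and 1371 ± 389 CPM (n=4). The beta fractions held 1.97% (labelled-positive) and 0.957% (labelled-negative) of the non-beta level. Within mice 1 to 3 these percentages were 2.94, 1.32 and 2.14 and, for the second fraction, 1.18, 0.624 and 1.33.

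By mean CPM the 2 Iroquois genes and *Pou3f4* stood at under 5% of their non-beta level in both beta fractions. Within single mice the labelled-positive percentages went higher, to 5.66 for *Irx2* in mouse 3 and 7.77 for *Pou3f4* in mouse 1. *Irx1* was at 55.1, 68.2 and 58.2 CPM in non-beta cells, at 1.63, 0.816, 1.68 and 1.64 CPM in the labelled-positive libraries, and at 0.0683, 0.913, 0.638 and 0.711 CPM in the labelled-negative libraries. The 2 beta fractions overlapped, with mouse 2 the lowest of the first and the highest of the second, and the lowest value rested on 2 counts. From mean CPM, the percentages of the non-beta level were 2.38 and 0.963. The reads summed over each fraction gave 95% Poisson intervals, for counting error only, of 2.07 to 2.69 and 0.789 to 1.23. *Irx2* was at 74.3, 93.4 and 80.0 CPM in non-beta cells, at 3.12, 3.07, 4.53 and 5.64 CPM in the labelled-positive libraries and at 1.47, 0.913, 2.30 and 2.84 CPM in the labelled-negative libraries. The fractions did not overlap, and *Irx2* stood at 4.95% and 2.28% of its non-beta level.

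*Pou3f4* was the gene with the fewest reads. In non-beta cells it was at 7.96, 8.69 and 8.61 CPM, the narrowest relative spread of the 7 genes there (coefficient of variation 4.78%, against 11.3% to 32.1% for the others). The labelled-positive libraries held 22, 0, 1 and 12 reads and the labelled-negative libraries 0, 0, 5 and 1. At this depth 5 of the 8 beta libraries were at or under the floor of 3 counts, and 3 of them had no read. The mean CPM stood at 2.73% and 0.493% of the non-beta level. The summed reads, 35 and 6, gave Poisson intervals of 1.82% to 3.63% and 0.194% to 1.15%, counting error only. In the first fraction 1 library, that of mouse 1, gave 22 of the 35 reads, and without that mouse the percentage was 1.16. In the second fraction mouse 3 gave 5 of the 6 reads, and without it the percentage was 0.109.

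**Figure D1:**
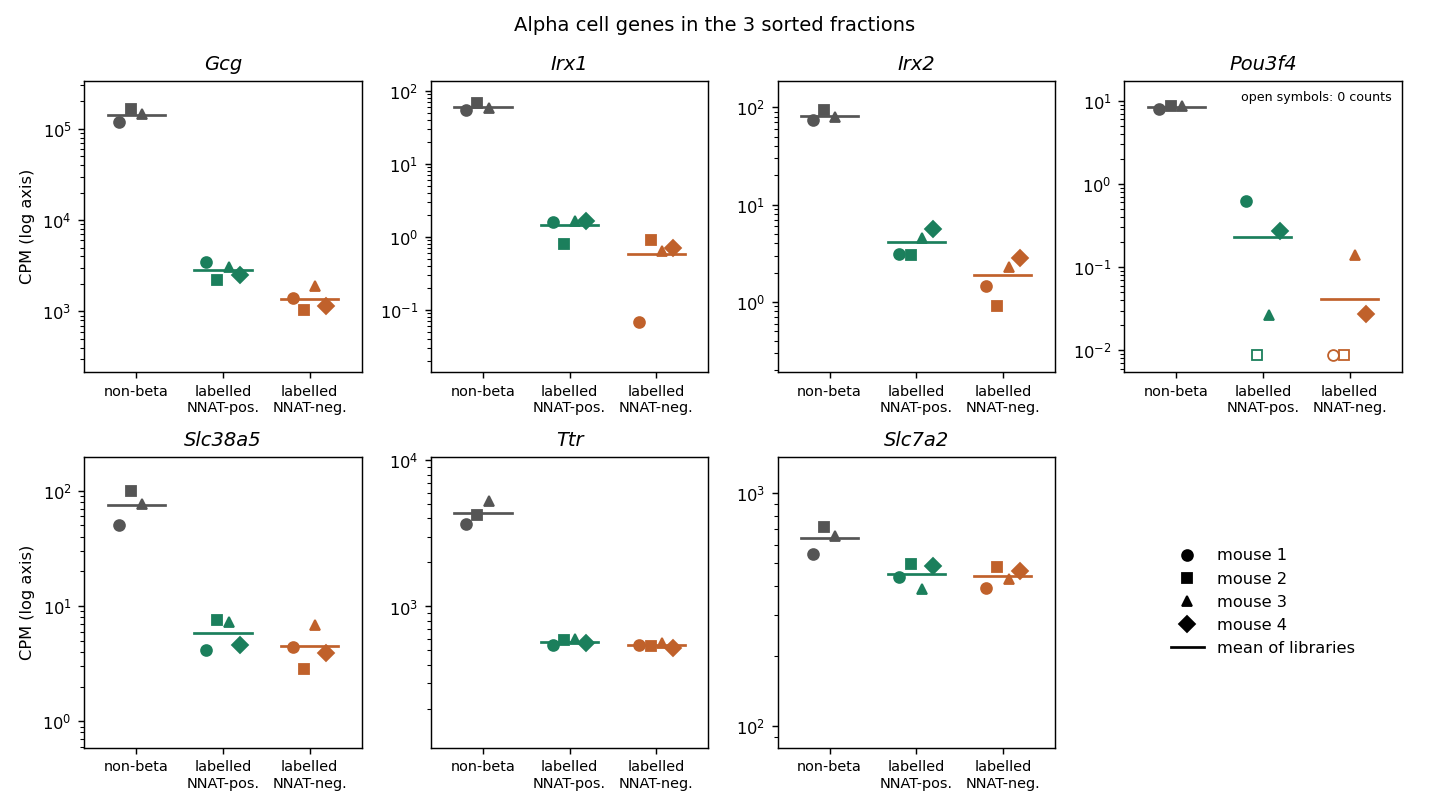
CPM of the 7 alpha cell genes in each library on log axes, by sorted fraction, with 1 symbol per mouse and a line at the mean of each fraction; open symbols mark libraries with 0 counts, drawn at the foot of the panel. Non-beta libraries stood above the beta libraries for each gene, by far for *Gcg* (lowest 119071 against a highest beta value of 3502 CPM) and narrowly for *Slc7a2* (549 against 494 CPM).

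The transporter and carrier genes kept more of their level in beta cells. *Slc38a5* was at 50.3, 98.5 and 77.0 CPM in non-beta cells, at 4.16, 7.58, 7.20 and 4.61 CPM in the labelled-positive libraries and at 4.37, 2.83, 6.85 and 3.88 CPM in the labelled-negative libraries. This was 7.82% and 5.96% of the non-beta level, with beta fractions that overlapped. *Ttr* was at 3657, 4214 and 5294 CPM in non-beta cells, at 547, 591, 599 and 559 CPM in the labelled-positive libraries and at 548, 533, 566 and 518 CPM in the labelled-negative libraries. *Ttr* had a small spread in beta cells, 574 ± 24.6 CPM and 541 ± 20.3 CPM (SD, n=4 each), at 13.1% and 12.3% of the non-beta level.

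*Slc7a2* differed least between the fractions. It was at 549, 717 and 656 CPM in non-beta cells, at 438, 494, 388 and 488 CPM in the labelled-positive libraries and at 393, 480, 427 and 463 CPM in the labelled-negative libraries. Beta cells held 70.6% and 68.8% of the non-beta level. Each beta library was still below each non-beta library.

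**Figure D2:**
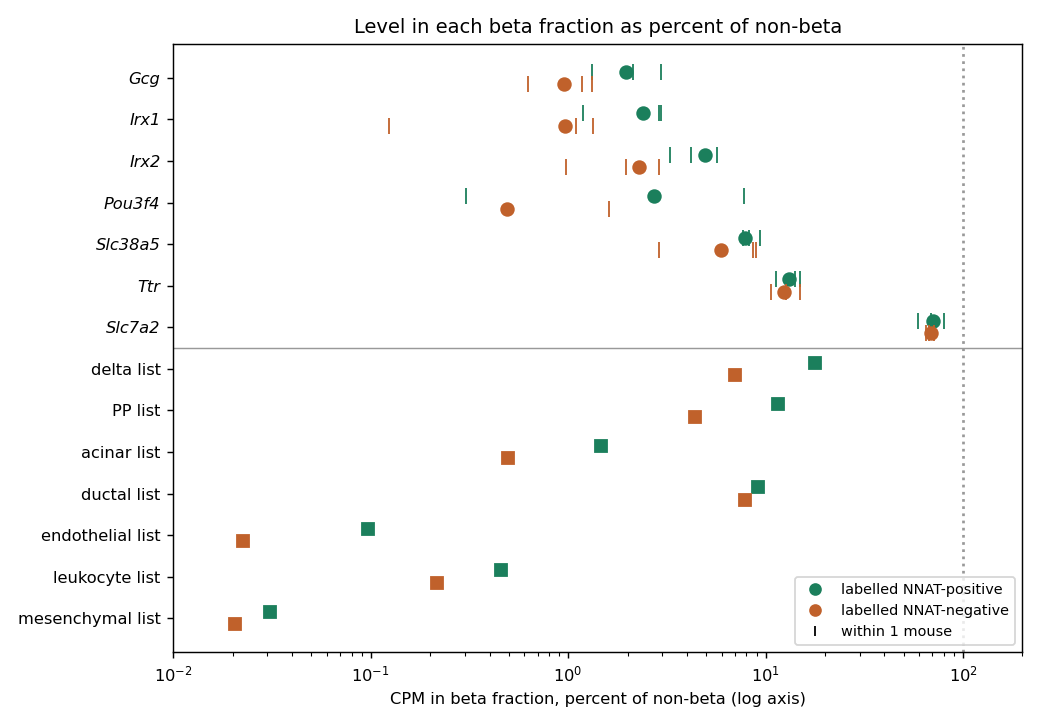
Mean CPM in each beta fraction as a percent of the non-beta mean on a log axis, for the 7 genes (circles, with ticks for the percent within each of mice 1 to 3, percents of 0 not drawn) and for the summed markers of other cell types (squares); the dotted line is 100%. The circles of *Gcg*, *Irx1*, *Irx2* and *Pou3f4* lay between 0.493% and 4.95%, those of *Slc38a5* and *Ttr* between 5.96% and 13.1%, and those of *Slc7a2* near 70%.

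Against non-beta cells, 6 of the 7 genes were called lower in the labelled-positive libraries, where 15.5% of the 17424 tested genes were called lower. The same number, 6 of 7, were called lower in the labelled-negative libraries, where 17.1% were. To be called, a gene had to change over 2-fold with its adjusted *p* under 0.01. *Gcg* fell, with log2 fold changes of -5.63 ± 0.22 (SE; adjusted *p*=6.87e-08) and -6.69 ± 0.23 (adjusted *p*=3.06e-08) by edgeR's quasi-likelihood test with Benjamini-Hochberg adjustment. *Irx1* fell too (log2 fold changes -5.47 and -6.77), as did *Irx2* (-4.59 and -5.73), *Slc38a5* (-3.60 and -3.96) and *Ttr* (-2.91 and -2.99), in 3 of 3 mice each. *Pou3f4* fell, with log2 fold changes of -5.81 ± 1.27 (adjusted *p*=0.00367) and -7.79 ± 1.31 (adjusted *p*=0.000693) in the same edgeR fit with Benjamini-Hochberg adjustment. These sizes depend on few reads, and the gene passed the filter only through the non-beta libraries. In the labelled-positive libraries its call was lost without mouse 2 (adjusted *p*=0.0166) and without mouse 3 (adjusted *p*=0.0147, both edgeR).

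*Slc7a2* passed the adjusted *p* in both comparisons but not the fold. Among the alternative fits (edgeR or DESeq2) its adjusted *p* rose to as much as 0.0257 (labelled-positive) and 0.0105 (labelled-negative), over the threshold. Its log2 fold changes were -0.53 ± 0.10 (adjusted *p*=0.00139) and -0.57 ± 0.10 (adjusted *p*=0.00086; edgeR's quasi-likelihood test, Benjamini-Hochberg adjusted). The median log2 fold change of the 7 genes was -4.59 and -5.73, beside -0.06 and -0.13 over all tested genes. Both comparisons use the same non-beta libraries.

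These percentages can be read beside those of all 3579 genes with a non-beta mean of at least 50 CPM, a filter on the non-beta level. Their median was 104% in the labelled-positive libraries and 102% in the labelled-negative libraries. Of them, 7.32% and 7.10% stood below the percentage of *Gcg*, 10.0% and 10.3% below that of *Ttr*, and 26.1% and 26.5% below that of *Slc7a2*. *Gcg* was thus not at the bottom of that range, whose 5% quantile was 0.438% and 0.234%. *Pou3f4*, under 50 CPM, was not among these genes.

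Levels of different genes were put in order as CPM per kilobase of merged exons. In non-beta cells the order was *Gcg* at 95836, *Ttr* at 3700, *Slc7a2* at 70.1, *Slc38a5* at 33.6, *Irx2* at 25.2, *Irx1* at 23.1 and *Pou3f4* at 2.87. The ranges of *Slc38a5* and *Irx2* overlapped, as did those of *Irx2* and *Irx1*, and no other neighbours did. The order of the means was the same in both beta fractions, although *Gcg* there, at 1890 and 917 CPM per kilobase, was far nearer to *Ttr* at 484 and 456. In the labelled-positive libraries no neighbours overlapped, and in the labelled-negative libraries *Irx2* and *Irx1*, and *Irx1* and *Pou3f4*, did.

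The proportions among the 7 genes were not the same in beta and non-beta cells, as shown by each gene's CPM over that of *Gcg* in the same library, a ratio not scaled for length and compared between fractions only. The CPM of *Ttr* was 3.09 ± 0.576% (SD, n=3) of the CPM of *Gcg* in the same non-beta library, 21.04 ± 4.72% (n=4) in the labelled-positive libraries and 41.4 ± 9.29% (n=4) in the labelled-negative libraries. The ranges of the 3 fractions did not overlap. For *Slc7a2* these percentages of the *Gcg* CPM were 0.449, 16.7 and 34.3. *Irx1* was at 0.0426%, 0.0509% and 0.0472% of the *Gcg* CPM, with overlapping ranges in the 3 fractions. Its labelled-negative libraries ran from 0.00487% to 0.0879% (SD 0.0359%), the lowest resting on 2 counts. That range is too wide to tell whether the proportion was fixed. *Irx2* was at 0.0580%, 0.150% and 0.141% of the *Gcg* CPM and *Slc38a5* at 0.0516%, 0.220% and 0.321%. *Pou3f4*, with few reads in beta cells, was at 0.00596%, 0.00735% and 0.00242%.

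Between the beta fractions, *Gcg* and *Irx2* were about 2-fold higher in the labelled-positive libraries, short of the threshold, and *Ttr* and *Slc7a2* differed little. *Gcg* was higher in 4 of 4 mice, by 0.69 to 1.32 on the log2 scale, with a fitted difference of 1.06 ± 0.17 (SE; 95% interval 0.67 to 1.45). *Irx2* was also higher in 4 of 4 mice, by 0.96 to 1.69, with a fitted difference of 1.14 ± 0.21 (0.66 to 1.61). Neither passed the test across all genes, with adjusted *p*=0.0709 and adjusted *p*=0.123 (edgeR's quasi-likelihood test, Benjamini-Hochberg adjusted). None of the 7 genes was called (0 of 7), and 0.0459% of tested genes (8, or 1 without the mouse as a block) were called higher in the labelled-positive libraries and 0 lower. At an unadjusted *p* below 0.05 there were 3 of the 7, *Gcg*, *Irx2* and *Irx1*, all higher in the labelled-positive libraries, beside 839 of the 17424 genes higher and 130 lower.

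The call for *Gcg* and *Irx2* depended on the fit. *Gcg* was called when only the 8 beta cell libraries were fitted (log2 difference 1.02, adjusted *p*=0.00131, edgeR) and without the filter on low counts (1.03, adjusted *p*=0.00189, edgeR). It was not called by DESeq2 (1.02, adjusted *p*=0.966). DESeq2 called *Irx2* (1.11, adjusted *p*=3.87e-05). Over the 10 alternatives run, the log2 difference was between 0.96 and 1.2 for *Gcg* and between 1.00 and 1.23 for *Irx2*.

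The other genes were less clear or differed little. *Irx1* had a fitted log2 difference of 1.30 ± 0.43 (95% interval 0.34 to 2.26) and was higher in 3 of 4 mice, from 3.79 in mouse 1 to -0.15 in mouse 2 (adjusted *p*=0.661, edgeR with Benjamini-Hochberg adjustment). *Pou3f4* had an interval of -0.97 to 4.93, too wide to read. *Slc38a5* differed by 0.37 ± 0.25 (-0.18 to 0.92; adjusted *p*=0.905, edgeR with Benjamini-Hochberg adjustment), with 1.40 in mouse 2 and at most 0.25 in the other mice. *Ttr* differed by 0.08 ± 0.10, with an interval of -0.13 to 0.30. *Slc7a2* differed by 0.04 ± 0.09, with an interval of -0.16 to 0.24, and its direction turned with the scaling, to -0.00054 with RLE size factors. The intervals of *Ttr* and *Slc7a2* leave out a 2-fold difference in either direction.

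**Figure D3:**
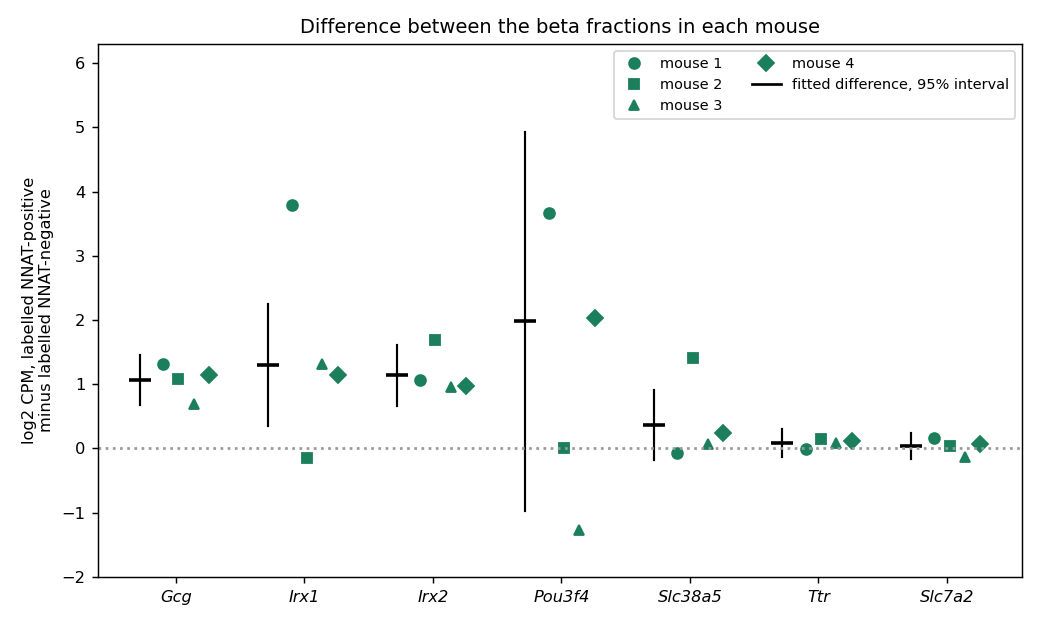
Log2 CPM in the labelled-positive minus the labelled-negative library of the same mouse (green symbols) for the 7 genes, with the fitted difference and its 95% interval in black. *Gcg* and *Irx2* were above 0 in 4 of 4 mice, while *Ttr* and *Slc7a2* lay between -0.14 and 0.16 in each mouse.

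The difference between *Gcg* and the other genes was tested within mice. The ratio of *Gcg* to *Ttr* was higher in the labelled-positive library in 4 of 4 mice, by 1.32, 0.933, 0.607 and 1.04 on the log2 scale (mean 0.98). The ratio of *Gcg* to *Slc7a2* was higher in 4 of 4 mice too, by 1.03 on average. The exact two-sided sign permutation test gave *p*=0.125 for each, the smallest that 4 mice allow, and 0.25 after Benjamini-Hochberg adjustment over the 4 ratios tested. The ratio of *Gcg* to *Irx2* had no common direction (2 of 4 mice, mean -0.14, exact *p*=0.625, adjusted 0.625), and that of *Gcg* to *Slc38a5* was higher in 3 of 4 (mean 0.643, exact *p*=0.25, adjusted 0.333).

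Markers of other non-beta cells were also higher in the labelled-positive libraries. The 4 delta cell genes summed to 1403 to 2490 CPM there and to 543 to 1046 CPM in the labelled-negative libraries, which is 17.8% and 6.98% of the non-beta level, higher in 4 of 4 mice. *Sst* made up most of these sums, with means of 1887 and 743 CPM of mean sums of 1970 and 773 CPM. *Ppy* and *Pyy*, the peptide hormones of PP cells, summed to 300 to 421 CPM and to 89.0 to 159 CPM, 11.5% and 4.40% of the non-beta level, also in 4 of 4 mice. Of these lists 1 of 4 delta genes (*Rbp4*, retinol binding protein, the partner of transthyretin in plasma) and 2 of 2 PP genes were called higher, beside 0.0459% of all tested genes. Their part in the *Gcg* and *Irx2* differences was not tested.

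The remaining marker lists were uneven between libraries, and leaving out each mouse, a check added after the data were seen, moved several of them. The 4 endothelial genes stood at 0.0965% and 0.0226% of the non-beta level, higher in the labelled-positive library in 4 of 4 mice, and at 0.0245% and 0.00894% without mouse 1. Of these genes 1 was at 0 in all labelled-negative libraries. The 3 mesenchymal genes stood at 0.0310% and 0.0204%, higher in 3 of 4 mice, and at 0.0222% and 0.0107% without mouse 1. Both lists stood far under the percentages of *Gcg*. The 3 leukocyte genes stood at 0.459% and 0.216%, higher in 2 of 4 mice, and without mouse 1 the order turned (0.319% and 0.377%). The 6 acinar genes stood at 1.46% and 0.496%, higher in 3 of 4 mice, with 1699 CPM in mouse 2 and 7.79 to 145 CPM in the other labelled-positive libraries. Their order turned without mouse 2, at 0.295% and 0.656%, and the labelled-negative value was 0.266% without mouse 4. The 3 ductal genes stood at 9.19% and 7.86%, higher in 3 of 4 mice, and at 7.42% and 7.46% without mouse 1. The delta and PP lists kept their order without each mouse, at 15.1% to 19.6% against 6.45% to 7.47% and at 9.91% to 12.5% against 4.10% to 4.86%. No list other than delta and PP had a gene called between the beta fractions. The part of these cells in the levels of the 7 genes was not tested.

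Other genes of the alpha cell programme, listed by their known role, were read in the same fit. Of 11 other genes known to be enriched in alpha cells, 8 were called lower and 0 higher in each beta fraction. Those called include *Loxl4*, with 0 counts in both beta fractions, and *Fap*, with 13 (labelled-positive) and 0 (labelled-negative) summed counts. Both passed the filter on low counts only through the non-beta libraries, so they could only be called lower. They were named after their values were seen. Of all tested genes 15.5% and 17.1% were called lower in the 2 comparisons, and 6.13% and 6.18% higher. The 4 with the highest levels did not move together. *Gc*, the vitamin D binding protein, was called lower, at 34.5% and 36.5% of the non-beta level. *Tm4sf4*, a tetraspanin-like membrane protein, stood at 172% and 163%, *Sphkap* at 183% and 182% and *Dpp4*, a peptidase that cleaves incretins, at 177% and 177%, none past the fold. None of the 11 was called between the beta fractions. The median log2 fold change of the 11 was -2.26 and -2.63.

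Of the 5 proglucagon processing genes, 0 were called lower and 1 was called higher in each fraction, beside the 6.13% and 6.18% of all tested genes called higher. This was *Pcsk1*, the convertase that releases GLP-1 from proglucagon and also cleaves proinsulin, at log2 fold changes of 3.87 and 3.82, named after its values were seen as the 1 gene called. *Pcsk2*, the convertase that releases glucagon, was at 7075 CPM in non-beta cells and at 74.4% and 72.7% of that in the beta fractions. *Cpe*, the carboxypeptidase that trims both hormones, was at 136% and 140%, *Scg5*, the chaperone of the *Pcsk2* enzyme, at 124% and 124%, and *Pcsk1n*, an inhibitor of the *Pcsk1* enzyme, at 49.1% and 56.4%. *Pcsk1n* had log2 fold changes of -0.84 (adjusted *p*=0.00384) and -0.67 (adjusted *p*=0.0119), short of the fold threshold in the edgeR fit with Benjamini-Hochberg adjustment.

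The families of the transcription factors and transporters were read against the same shares of all tested genes, 15.5% and 17.1% called lower and 6.13% and 6.18% called higher. Of the 4 other Iroquois genes only *Irx3* was tested, and it passed the filter on low counts only through the non-beta libraries. It was at 2.13 CPM in non-beta cells with 0 counts in all 8 beta libraries, at least 113-fold and 95.9-fold lower against a floor of 3 counts over each fraction, and it was not called (adjusted *p*=0.0114 and adjusted *p*=0.0118, edgeR with Benjamini-Hochberg adjustment). Of the 3 other POU class 3 genes only *Pou3f1* was tested, at 0.814 CPM in non-beta cells, and it was not called. Of 11 tested genes of the Slc7 family and its partner chains, 1 was called lower and 3 higher in each beta fraction, with *Slc7a14* at 285% and 266% and *Slc7a5*, a leucine transporter, at 228% and 217%. *Slc7a8* stood at 81.2% and 73.5% and *Slc3a2*, the heavy chain that partners several Slc7 transporters, at 86.5% and 82.2%, neither called. The others, named after their values were seen, were *Slc7a4* (higher, 38.3 and 41.5 against 16.1 CPM) and *Slc7a7* (lower, 0.321 and 0.406 against 9.10 CPM). Of the 10 other Slc38 genes, 3 were called lower and 2 higher, with *Slc38a4* at 230% and 222%. *Slc38a10* stood at 173% and 174%, *Slc38a2* at 137% and 132% and *Slc38a7* at 139% and 120%, none called. The others called, again named after their values were seen, were *Slc38a6* (higher) and *Slc38a1*, *Slc38a3* and *Slc38a11* (lower). *Slc38a3*, with 62 and 4 summed counts in the beta fractions, passed the filter on low counts only through the non-beta libraries. No gene of these families was called between the beta fractions.

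Receptors through which alpha cells are regulated went both ways. *Avpr1b*, a vasopressin receptor, was called lower, at 2.59% and 1.90% of its non-beta level of 63.7 CPM. *Glp1r*, the GLP-1 receptor, was called higher, at 1330 and 1302 CPM in the beta fractions against 77.1 CPM in non-beta cells. *Gipr*, the receptor of the incretin GIP, was called higher in both, with log2 fold changes of 1.86 and 1.67. Its means of 88.7 and 80.7 CPM, against 10.0 CPM in non-beta cells, rested on mouse 4 (244 and 228 CPM) and were 36.8 and 31.8 CPM without it. *Casr*, the calcium-sensing receptor, was called higher in the labelled-positive libraries only, with log2 fold changes of 1.18 and 0.93, a difference between the fractions of 0.25 ± 0.17 that did not pass the test (adjusted *p*=0.905, edgeR with Benjamini-Hochberg adjustment). Of the 6 receptor genes, 2 were called lower in each fraction (15.5% and 17.1% of all tested genes), and 4 and 3 were called higher (6.13% and 6.18% of all). Named after their values were seen, the others were *Sstr2*, a somatostatin receptor (lower, 0.462 and 0.221 against 12.4 CPM), and *Gcgr*, the glucagon receptor (higher, 22.8 and 23.2 against 0.686 CPM).

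The genes nearest to *Gcg* in their pattern were found by the root mean square difference of centred log2 CPM, a description that uses the same libraries as the levels above. Over the 11 libraries the 5 nearest were *Atoh8* (0.436 on the log2 scale), *Pdk4* (0.461), *Lrp1* (0.473), *Hoxd8* (0.481) and *Ephb1* (0.489). *Atoh8*, *Hoxd8* and *Ephb1* were near or at 0 in beta cells, with means of 0.0399, 0.0140 and 0.00654 CPM in the labelled-positive and 0 in the labelled-negative libraries, so their distance there is set by the prior count. *Lrp1*, a lipoprotein receptor, stood at 2.68% and 1.48% of its non-beta level of 613 CPM, and *Pdk4*, a kinase that inhibits pyruvate dehydrogenase, at 2.39% and 1.30% of 158 CPM. Among the 17423 other tested genes, *Irx2* ranked 181, *Irx1* 405, *Pou3f4* 488, *Slc38a5* 1062, *Ttr* 1970 and *Slc7a2* 5370.

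Over the 8 beta cell libraries alone, the nearest genes were others. They were *Uchl1* (0.138), *Agap2* (0.154), *Sema3e* (0.252), *Drc1* (0.266) and *Caskin1* (0.281), of which none was among the 5 nearest over the 11 libraries. *Uchl1*, a ubiquitin hydrolase of neuroendocrine cells, stood at 11.8 and 5.90 CPM in the beta fractions and 38.3 CPM in non-beta cells. *Caskin1* was higher than in non-beta cells, at 173% and 107%, so that its likeness to *Gcg* held among beta cell libraries and not across the 3 fractions. *Irx2* ranked 1132 and *Slc7a2* 7315 of 17423 among the beta libraries, the latter with a Pearson *r* of -0.21 to *Gcg* over the 8 libraries, which come in pairs from 4 mice.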

How the data were processed

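Cells were sorted by FACS from islets of 4 mice into 3 fractions, and 11 poly(A) libraries were sequenced as paired 75 bp reads. The authors aligned them to mm10 with STAR 2.7.1a, counted on gencode release 25 and deposited raw read counts for each gene; their own fold changes (DESeq2 1.32.0) were not used. Totals were 30420352 to 43238376 counts.

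Counts were analysed in R 4.3.3 with the quasi-likelihood test of edgeR 4.0.16 (TMM, filterByExpr by fraction, 17424 genes kept, Benjamini-Hochberg adjustment over them), all 11 libraries in 1 fit with the mouse as a block. The threshold of a call was an adjusted *p* of 0.01 together with a 2-fold change. SEs were obtained from the log2 fold change and its *F* statistic. Log2 CPM used a prior count of 2. The mouse is paired by the label numbers and the study's statement that replicates are individual mice. Deviations from the fraction means correlated between same-numbered beta libraries (4 pairs, *r* from 0.18 to 0.66). The mean over the 12 other pairs was -0.10, a value largely set by centring on those means.

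Coordinates came from gencode release 21 on GRCm38, where 55141 of 55401 identifiers matched. Intervals of low counts were exact Poisson at 95% on the reads summed over a fraction, and cover counting error only. The 7 genes are named throughout. From each list the 4 genes with the highest mean CPM were named, with the 5 genes nearest to *Gcg*. The genes and lists were chosen with earlier results of these data known. Some results are not reported here. Tests were checked on simulated data. Alternatives were DESeq2 1.42.0, RLE size factors, TMM without insulin genes, no filter, no block, beta libraries only, another threshold, total-count CPM, medians, and leaving out each mouse.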

Additional observations from a re-analysis of the deposited data

Results flagged for a closer look

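*Irx1* in the labelled-positive libraries had 1 library apart from the other 3. The library of mouse 2 was at 0.816 CPM and the others were at 1.63 to 1.68 CPM, so that its gap was 0.947 of the range of the group, past Dixon's 95% critical value for 4 libraries. Of the 14 groups tested, 7 genes in the 2 beta fractions, this was the 1 past that value, and chance alone passes about 1 in 20. In mouse 2 *Irx1* was also the 1 case in which the labelled-negative library was higher, by 0.15 on the log2 scale, while *Irx2* was 1.69 higher in the labelled-positive library of that mouse.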

How the results depend on the processing

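Each of the 63 alternative values in the comparison of the labelled-negative libraries with non-beta cells kept its direction and stayed called or not called. So did 61 of 63 in that of the labelled-positive libraries. A call needs the fold and the adjusted *p* together, and the adjusted *p* of *Slc7a2* alone did not always stay under its threshold. The exceptions were *Pou3f4* without mouse 2 (log2 fold change -4.75) and without mouse 3 (-5.79), and the count of the 7 genes called lower was 5 to 6 when each mouse was left out. Another scaling moved the median of all genes by at most 0.097 on the log2 scale.

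Between the beta fractions, 1 of the 7 genes was called higher with DESeq2, with no filter and with the beta libraries only. DESeq2 called 6 genes lower and 80 higher over all genes, no filter 1 lower and 25 higher, and leaving out each mouse 0 to 5 higher (0 without mouse 3, 5 without mouse 1). Without the replicate block, which is paired by mouse, 1 gene was called higher and no call among the 7 genes changed. *Slc7a2* turned to -0.00053 (DESeq2), -0.00054 (RLE size factors), -0.0050 (beta libraries only) and, when each mouse was left out, was -0.015 to 0.094 (below 0 without mouse 1, at -0.0046, and without mouse 4).

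At an adjusted *p* below 0.05 with no fold threshold, edgeR called 4576 genes lower and 3686 higher in the labelled-positive libraries than in non-beta cells, 4959 and 3593 in the labelled-negative libraries, and 18 higher in the former than in the latter. The percentage of the non-beta level of *Ttr* moved by more than its spread, to 12.3 and 11.4 with CPM on total counts and to 13.6 and 12.8 with medians, and it was 12.3 to 14.4 and 11.3 to 13.5 when each mouse was left out. The causes were not tested. Few reads limit *Pou3f4* and *Irx1* in beta cells, and 4 mice allow no exact *p* below 0.125.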
